A study of Mus musculus with 144 samples.

Results

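Primary mouse hepatocytes were compared 4 h after addition of 10 nM the dioxin TCDD (2,3,7,8-tetrachlorodibenzo-p-dioxin) or of dimethyl sulfoxide (DMSO), the solvent, by RNA-Seq. The comparison takes the libraries whose labels give hour 4, 16 of the libraries of the series' 36 groups of 4, with 8 TCDD and 8 DMSO libraries. The 16 fall into 4 groups of 4 libraries: wild-type (WT, strain C57BL/6NCrl) with DMSO, WT with TCDD, Pkm-delta-DRE (PkmΔDRE) with DMSO and PkmΔDRE with TCDD. All came from livers of 28 day old male mice. During attachment the hepatocytes were kept in Williams E medium on type I collagen with serum, ascorbic acid and dexamethasone. Per the study's methods, DMSO or TCDD was then given in fresh Williams E medium with ascorbic acid and dexamethasone, for which no serum is listed. PkmΔDRE mice lack a dioxin response element (DRE) in an intron of Pkm, the gene of the muscle type pyruvate kinase, in every tissue of the body. Pkm ran against these labels at 8 h: it lay at 33.03 to 63.4 CPM (a gene's counts scaled to a common total on genes per library) with DMSO and 23.4 to 51.6 CPM with TCDD in the libraries labelled WT, and at 29.9 to 62.8 CPM with DMSO and 88.6 to 123.4 CPM with TCDD in those labelled PkmΔDRE, so that it was higher with TCDD, with no overlap, under the label that names the deletion and not under WT. WT and PkmΔDRE therefore stand below for the labels of the libraries, and a direction within a genotype or between them holds for the labels only. The labels give each library a running number but no replicate number, animal or isolation date, so the p-values measure only the spread between these libraries, which may be technical. TCDD and DMSO were compared over both genotypes with the genotype label as a covariate, so that exchanged genotype labels would leave the pooled contrast as it is.

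TCDD is a ligand of the aryl hydrocarbon receptor (AHR), which waits in the cytosol with HSP90 and p23. On binding a ligand AHR moves to the nucleus, pairs with ARNT and binds DREs whose core is GCGTG, and so drives a battery of genes for drug metabolism together with its own inhibitors. In liver, Cyp1a1 is its classic target, nearly silent until a ligand is present.

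The promoters of the members that mark the AHR response are given here, since the results below turn on them. Each window runs from 250 bases before to 50 bases after the RefSeq start site in GRCm38.p6, 5′ to 3′ on the gene's strand, and is taken from RefSeq's promoter table. Capitals mark the AHR core motif GCGTG or its reverse complement CACGC. Cyp1a1 (chr9:57697363-57697662, plus strand) is the monooxygenase with the largest change at 4 h, Ahrr (chr13:74292282-74292581, minus strand) encodes the AHR repressor, Tiparp (chr3:65528197-65528496, plus strand) encodes an ADP-ribosyltransferase that restrains AHR, and Nqo1 (chr8:107403156-107403455, minus strand) encodes a quinone reductase. These 4 were chosen after their values were seen.
Cyp1a1: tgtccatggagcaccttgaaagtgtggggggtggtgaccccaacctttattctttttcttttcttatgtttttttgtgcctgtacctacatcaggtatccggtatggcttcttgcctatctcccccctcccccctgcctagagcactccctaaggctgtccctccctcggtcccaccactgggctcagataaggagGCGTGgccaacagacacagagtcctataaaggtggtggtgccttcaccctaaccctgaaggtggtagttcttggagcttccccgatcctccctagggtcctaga
Ahrr: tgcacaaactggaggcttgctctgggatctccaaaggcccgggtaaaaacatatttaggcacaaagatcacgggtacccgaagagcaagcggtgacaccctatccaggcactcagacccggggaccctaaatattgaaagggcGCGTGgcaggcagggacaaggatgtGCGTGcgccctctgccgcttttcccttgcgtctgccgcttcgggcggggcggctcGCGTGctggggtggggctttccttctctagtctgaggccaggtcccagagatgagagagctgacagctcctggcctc
Tiparp: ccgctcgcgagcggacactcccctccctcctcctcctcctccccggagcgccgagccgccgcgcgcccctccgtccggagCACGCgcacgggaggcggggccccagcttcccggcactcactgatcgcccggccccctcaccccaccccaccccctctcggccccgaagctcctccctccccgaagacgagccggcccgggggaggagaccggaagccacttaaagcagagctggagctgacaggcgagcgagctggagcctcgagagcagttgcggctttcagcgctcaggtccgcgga
Nqo1: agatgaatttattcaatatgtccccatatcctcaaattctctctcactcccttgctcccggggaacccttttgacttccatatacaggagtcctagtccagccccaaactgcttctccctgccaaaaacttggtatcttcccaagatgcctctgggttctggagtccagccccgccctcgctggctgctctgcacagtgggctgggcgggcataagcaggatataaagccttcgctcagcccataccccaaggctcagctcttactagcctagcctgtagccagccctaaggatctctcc
The Cyp1a1 window held 1 GCGTG starting 54 bases before the start site (position -54). The Ahrr window held 3, at -107, -82 and -27, the Tiparp window held 1 CACGC at -170 and the Nqo1 window held neither motif. Of the 20 AHR battery genes listed for this comparison 15 had an entry in the table, with 17 windows in all, and 8 of the 17 windows (47.1%) held the motif on either strand, against 10639 of all 32851 promoter windows (32.4%). A match is a description of these letters in this window, and AHR also binds at sites outside it.

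Total counts on genes ranged from 15121923 to 25965475 per library (median 17586040). One library stood apart and is given with and without below: library 80, a PkmΔDRE DMSO control. Albumin (Alb) took 0.896% of its counts against 5.48% to 8.75% in the other 15, and its 10 hepatocyte markers summed to 9105 CPM against 90300 to 120500. Its 6 cholangiocyte markers (bile duct cells) summed to 662 CPM against 22.2 to 66.97, and 9.16% of its read pairs fell outside genes against 3.37% to 7.95%. The hepatocyte label is borne out by its defining markers in the other 15 libraries and not in library 80. Of markers of other liver cells, 1 of 8 endothelial, 3 of 5 stellate and 1 of 4 cholangiocyte markers tested had an unadjusted p below 0.05 between TCDD and DMSO with library 80, and 0, 1 and 0 without it. None of the 10 Kupffer cell markers did, with or without it. Over all genes the shares were 7.48% with library 80 and 9.03% without it. In a mixture of cells, fewer cells of a type and less RNA per cell cannot be told apart. Libraries 41, 42 and 43, which are 3 of the 4 WT TCDD libraries, also differed from the rest: 6.36% to 7.95% of their pairs fell outside genes and 19715 to 21216 genes had a count, against 14235 to 17717 genes in the others apart from library 80. Library 44, the other WT TCDD library, had 3.85% of pairs outside genes. At 8 h, read below, the share was 7.2% to 15.6% in WT with TCDD and 3.94% to 4.84% in WT with DMSO. In PkmΔDRE at 8 h it was 5.18% to 5.52% with TCDD and 3.59% to 5.42% with DMSO. At 2 h it was 5.06% to 6.03% in WT TCDD libraries 37, 38 and 39, 3.10% in library 40 and 3.74% to 4.43% in WT with DMSO. Library 45, WT with TCDD at 8 h, had 23.6% of pairs unmapped.

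**Figure D1:**
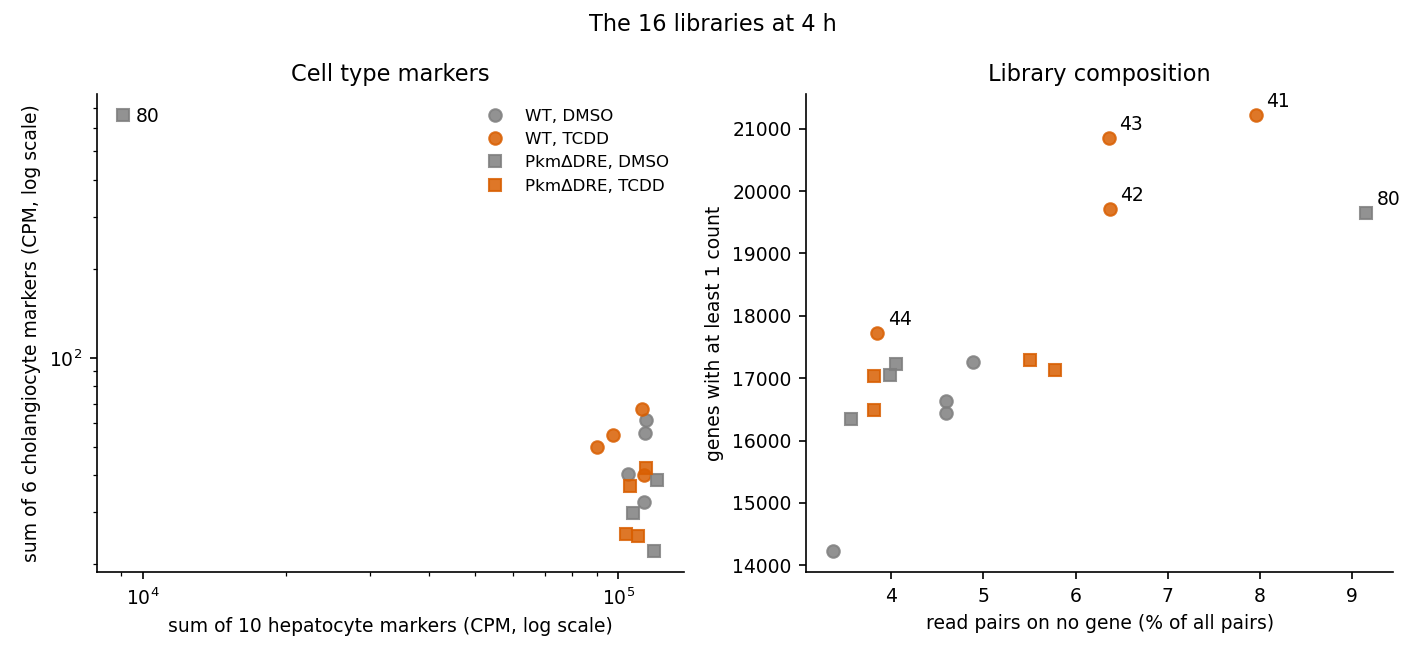
The 16 libraries at 4 h, 1 point each, circles for WT, squares for PkmΔDRE, grey for DMSO and orange for TCDD. On the left, the summed CPM of 6 cholangiocyte markers is plotted against that of 10 hepatocyte markers, both on log scales, and library 80 lies alone at 9105 and 662 CPM. On the right, the number of genes with at least 1 count is plotted against the percent of read pairs outside genes, and libraries 41, 42, 43 and 80 lie apart from the other 12.

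Cyp1a1, the classic AHR target, was the gene that edgeR called over both labels at 4 h when library 80 was left out, while with all 16 libraries it called none. In the WT DMSO libraries it measured 2.11, 0.567, 1.94 and 3.54 CPM, and in the WT TCDD libraries 41 to 44 it measured 103.9, 100.7, 253 and 8.24 CPM. In the PkmΔDRE DMSO libraries 77 to 80 it measured 0.918, 1.66, 3.23 and 45.6 CPM, and in the PkmΔDRE TCDD libraries 255, 591, 629 and 187 CPM. All 8 TCDD libraries were above the 7 DMSO libraries other than library 80, and the groups overlapped through library 80 and library 44, since the control library 80 was above the treated library 44. Cyp1a1 was higher with TCDD by 5.37 ± 0.85 (log2, SE, n = 8 and 8), adjusted p = 0.1001 by the quasi-likelihood test of edgeR (Benjamini-Hochberg), which misses the threshold of 0.05. Without library 80 the difference was 6.63 ± 0.75 (n = 8 and 7), adjusted p = 0.00384 by edgeR. An exact two-sided permutation test of TCDD and DMSO labels within genotype, on log2(CPM + 0.5), gave p = 0.000408 with all 16 libraries and p = 0.000408 without library 80, the smallest p the design allows for Cyp1a1.

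Across all genes a call needed an adjusted p below 0.05 and a fold change of at least 1.5. No gene of 13214 tested was called with all 16 libraries by edgeR (0%), while 988 (7.48%) had an unadjusted p below 0.05 and DESeq2 called 1, which was Cyp1a1. Without library 80, edgeR called 1 of 13529 genes (0.00739%), which was Cyp1a1, and 1221 (9.03%) had an unadjusted p below 0.05. Of the genes below 0.05 in all 16 libraries, 634 were higher and 354 lower with TCDD.

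**Figure D2:**
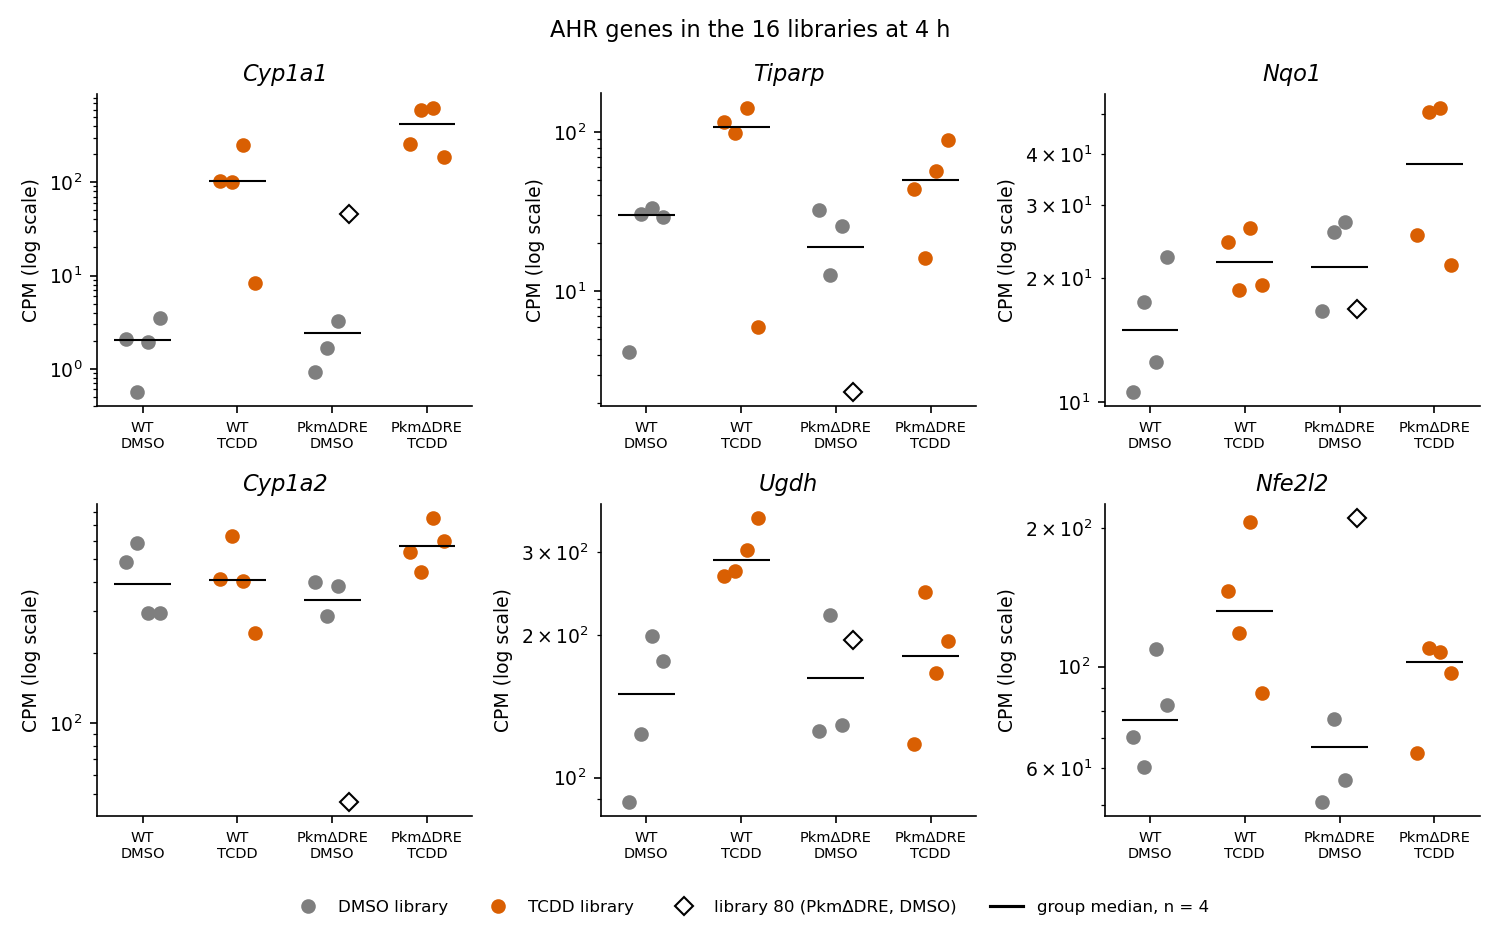
CPM of 6 AHR battery genes in the 16 libraries at 4 h, on log scales, grey for DMSO and orange for TCDD, with a line at the median of each group of 4. Cyp1a1 lies at 8.24 to 629 CPM with TCDD and at 0.567 to 3.54 CPM in the controls other than library 80 (open diamond, 45.6 CPM), while the other 5 genes overlap between treatments.

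The inhibitors of AHR were read next. Tiparp measured 4.15, 30.7, 33.4 and 29.4 CPM in the WT DMSO libraries and 116.3, 98.5, 142.2 and 5.99 CPM with TCDD. In the PkmΔDRE libraries it measured 32.6, 12.7, 25.6 and 2.35 CPM with DMSO and 43.7, 16.1, 56.96 and 89.03 CPM with TCDD. Libraries 41, 42 and 43 were above every other library, and library 44 was below 3 of the 4 WT controls. The difference was 1.66 ± 0.58 (unadjusted p = 0.0108, adjusted p = 0.626 by edgeR) and 1.48 ± 0.56 without library 80 (adjusted p = 0.519). Without libraries 41, 42 and 43, but with library 80 kept, it was 0.86. Without library 80 and with the share of uniquely mapped pairs outside genes as a covariate it was 0.045. Tiparp did not pass the test in any of these fits, and it was highest in the 3 WT libraries that also had many pairs outside genes, whose part in its value was not tested. Ahrr was too low to enter the fit. Its counts were 0, 0, 0 and 0 in the WT DMSO libraries, 2, 4, 10 and 4 in the WT TCDD libraries, 0, 0, 1 and 1 with PkmΔDRE and DMSO, and 1, 0, 7 and 11 with PkmΔDRE and TCDD. Every WT TCDD library thus had reads and no WT control did: 20 counts against 0 are 7.13-fold higher when 3 counts over the group are taken as the floor, with the 20 counts taken as exact. In PkmΔDRE 19 counts stood against 2. The exact two-sided permutation test on log2(CPM + 0.5) gave a difference of 0.54 (p = 0.00245), and 0.55 without library 80 (p = 0.00694), before correction for the 7 genes so tested.

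The other CYP1 monooxygenases gave no call. Cyp1a2, which is active in untreated liver, measured 489, 589.6, 294 and 295 CPM in WT controls and 412, 630.1, 406 and 243 CPM in WT with TCDD. With PkmΔDRE it measured 399.9, 285, 385 and 46.1 CPM with DMSO and 538, 444, 752 and 599.6 CPM with TCDD. The WT groups overlapped throughout, and the PkmΔDRE TCDD libraries all lay above their controls. Under the label PkmΔDRE, 1.54% of 12062 genes did not overlap between treatments, in either direction. Without library 80 the share was 2.65% of 12247 genes. The pooled difference of Cyp1a2 was 0.52 ± 0.36 (unadjusted p = 0.164). It fell to 0.30 without library 80, whose Cyp1a2 was the lowest of all, as were its hepatocyte markers. Within WT it was -0.01, and within PkmΔDRE without library 80 it was 0.70 (unadjusted p = 0.0062, edgeR). In that last fit 1.05% of all genes had an unadjusted p below 0.05, and Cyp1a2 was not called after adjustment. Cyp1b1, an extrahepatic member of the family, had 10 counts against 0 in WT, 3.56-fold higher against the same floor, and 10 against 6 in PkmΔDRE. Only some libraries carried them: counts were 5, 0, 5 and 0 in WT with TCDD, 0, 9, 1 and 0 in PkmΔDRE with TCDD, and 0, 1, 0 and 5 in PkmΔDRE with DMSO. Its exact two-sided permutation p was 0.194, where 0.00612 is the smallest possible.

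Nqo1, the quinone reductase shared by AHR and the oxidant sensor NRF2, measured 10.6, 17.5, 12.5 and 22.5 CPM in WT controls and 24.5, 18.7, 26.5 and 19.2 CPM in WT with TCDD. In PkmΔDRE it measured 16.6, 25.8, 27.3 and 16.8 CPM with DMSO and 25.4, 50.4, 51.7 and 21.5 CPM with TCDD. The lowest TCDD library, at 18.7 CPM, was above 5 of the 8 controls, and the groups overlapped in both genotypes. The difference was 0.61 ± 0.22 (unadjusted p = 0.0117, adjusted p = 0.626 by edgeR), and its exact two-sided permutation p was 0.0192, or 0.0433 without library 80. Nfe2l2, which encodes NRF2, measured 70.3, 60.5, 109.2 and 82.6 CPM in WT controls and 146, 118.5, 207 and 87.5 CPM in WT with TCDD. With PkmΔDRE it measured 50.7, 77.02, 56.6 and 211 CPM with DMSO and 64.9, 109.6, 107.5 and 97.02 CPM with TCDD. The highest value of all was that of control library 80, with which the difference was 0.34 ± 0.29 (unadjusted p = 0.256) and without which it was 0.67 (unadjusted p = 0.00122, adjusted p = 0.519 by edgeR). Without libraries 41, 42 and 43, but with library 80 kept, the Nfe2l2 difference was -0.03. Without library 80 and with the share of uniquely mapped pairs outside genes as a covariate it was 0.49.

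Of the conjugation genes, Ugdh makes the UDP-glucuronate used by UDP-glucuronosyltransferases. It measured 88.7, 123.7, 199.7 and 177 CPM in WT controls and 267, 273, 303 and 354 CPM in WT with TCDD, so that all 4 WT TCDD libraries, library 44 included, lay above the WT controls. Under the label WT, 812 of 12434 genes (6.53%) did not overlap between treatments, and 312 of these were higher with TCDD. In PkmΔDRE the groups overlapped, with 125.4, 221, 128.9 and 196 CPM with DMSO and 117.7, 247.5, 167 and 195 CPM with TCDD. The pooled difference was 0.55 ± 0.22 (unadjusted p = 0.0253, adjusted p = 0.626 by edgeR). Ugt1a6a, a phenol UDP-glucuronosyltransferase, was low, at 0 to 0.852 CPM in the controls and 0.169 to 2.23 CPM with TCDD, a difference of 1.70 ± 0.80 (unadjusted p = 0.0488). Its locus shares exons with Ugt1a6b and the other Ugt1a genes, so counts between them are uncertain, and Ugt1a6b differed by 0.18 ± 0.25.

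Among all 20 battery genes, 15 were high enough to test. This list and those below were chosen with earlier results of these data known. Counts of their members therefore describe the lists and are no independent test. With all 16 libraries, 7 of the 15 had an unadjusted p below 0.05, all higher with TCDD, against 7.48% of all genes in either direction, and none passed after adjustment over all genes. The 7 were Cyp1a1, Tiparp, Nqo1, Ugdh, Ugt1a6a, Htatip2 and Pmm1. The median log2 fold change of the 15 was 0.52 against -0.02 over all genes tested, and all 15 were above 0. Without library 80, 8 of the 15 were below 0.05 (9.03% of all genes) and the median was 0.54. By label, 3 of 14 tested members were below 0.05 under WT, against 17.1% of all genes in that fit. Their median was 0.22, with 11 above 0 and 3 below. Under PkmΔDRE 4 of 14 were below 0.05 (2.40% of all genes), with a median of 0.54. Leaving out library 80 made this 8 of 14 (1.05% of all genes), with a median of 0.61. The list's difference between labels was not tested. Htatip2, an oxidoreductase, lay at 31.01 to 44.1 CPM in WT controls and 40.5 to 61.95 CPM with TCDD, and at 47.3 to 87.2 CPM and 71.2 to 89.2 CPM in PkmΔDRE, with a difference of 0.32 ± 0.14. Pmm1, a phosphomannomutase, differed by 0.43 ± 0.19. Fmo2, a flavin monooxygenase, was at 3.08 CPM in control library 80, above every TCDD library, and its difference went from 0.81 ± 0.70 to 1.87 ± 0.67 without it. Xdh (xanthine dehydrogenase), Selenbp1 (a selenium binding protein) and Exoc3 (an exocyst subunit) differed by 0.19, 0.16 and 0.04. Aldh3a1 and Lekr1 were too low to test, with 11 and 74 counts summed over the TCDD libraries and 4 and 19 over the controls. The summed battery ranged from 1536 to 2705 CPM with TCDD (median 2124) and from 1203 to 1703 CPM with DMSO (median 1395), a sum to which Cyp1a2 and Selenbp1 gave the most counts on average.

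**Figure D3:**
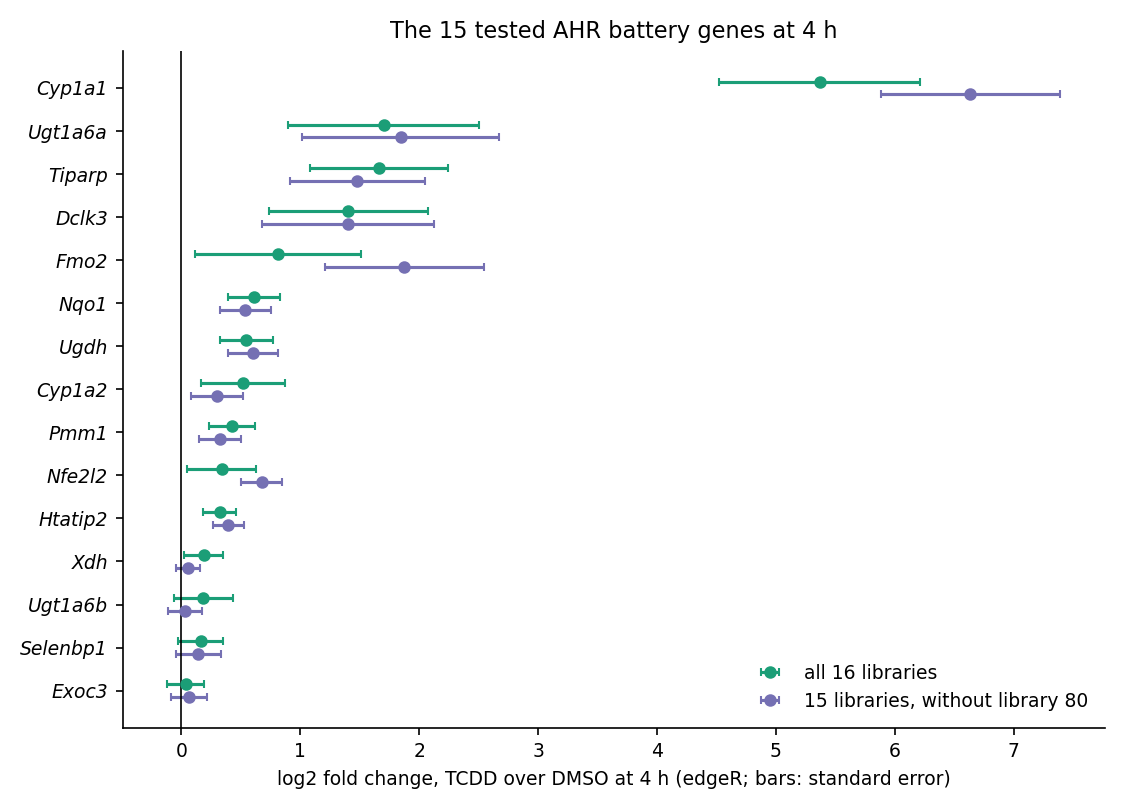
Log2 fold change of the 15 tested AHR battery genes, TCDD over DMSO at 4 h, with bars of 1 standard error, green for all 16 libraries and violet for the 15 without library 80. Cyp1a1 lies at 5.37 and 6.63, Exoc3 at 0.04 and 0.06, and Fmo2 and Cyp1a1 move most when library 80 is left out.

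The receptor and its partners were read from a separate list. Ahr itself measured 3.79 to 18.2 CPM in WT controls, 10.5 to 25.9 CPM in WT with TCDD, 5.95 to 22.8 CPM in PkmΔDRE controls and 7.56 to 11.1 CPM in PkmΔDRE with TCDD. The treatments overlapped, and the difference was 0.04 ± 0.34. Arnt, the partner of AHR on DNA, differed by -0.15 ± 0.14. Arnt2 was at 12.3 CPM in library 80 and at 0 to 1.26 CPM in the other 15, and its difference went from -3.44 to -1.83 without that library. The coactivators Ncoa2 and Crebbp differed by 0.61 ± 0.23 (unadjusted p = 0.0185) and 0.62 ± 0.28 (unadjusted p = 0.0425). Of 15 tested members of the list, 3 were higher and 1 was lower with TCDD at an unadjusted p below 0.05. Over all genes 7.48% were below 0.05 in either direction, and no member passed after adjustment by edgeR. The list's median was 0.49, or 0.61 without library 80. But with library 80 left out and the share of uniquely mapped pairs outside genes added as a covariate the median was 0.02. No member was then below 0.05. Ncoa2 was at 0.054 and Crebbp at 0.024 in that fit. The median of the AHR battery was 0.49 there, all 15 tested members were above 0, and 5 had an unadjusted p below 0.05, against 1.37% of all genes in that fit. Cyp1a1 was at 6.58 there (adjusted p = 0.00308 by edgeR), Ugdh at 0.63 and Nqo1 at 0.49, while Ugt1a6a was at 0.085. Pairs outside genes moved with the WT TCDD libraries, and their part in the values of these lists was not tested.

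The other lists were read against all genes in the same way. Over all genes 7.48% had an unadjusted p below 0.05 with all 16 libraries, and 9.03% without library 80. The mitochondrial genome had 11 of 13 genes tested, all above 0, with a median of 0.41 and with mt-Nd6 (0.67 ± 0.24), mt-Nd5 (0.71 ± 0.27) and mt-Nd4l (1.04 ± 0.44), subunits of complex I, at an unadjusted p below 0.05. In the fit without library 80 and with the share of pairs outside genes as a covariate, mt-Nd6 was at 0.25, mt-Nd5 at 0.12 and mt-Nd4l at 0.58, no member was below 0.05 and the median was 0.14, and the part of that share in these values was not tested. The list's median was 0.27 without library 80 alone, in which mitochondrial transcripts took 1.52% of counts against 2.84% to 6.69% in the others. Of 19 glycolytic genes, Ldhb (-1.27 ± 0.57), a lactate dehydrogenase subunit, was the one below 0.05 over both genotypes. Library 80 held 6.92 CPM of it, and without that library Ldhb differed by -0.77 ± 0.51 (unadjusted p = 0.153) and no glycolytic gene was below 0.05. Of 7 pentose phosphate pathway genes, G6pdx (-0.51 ± 0.20) and Pgd (-0.35 ± 0.15), the dehydrogenases of its oxidative arm, had an unadjusted p below 0.05, and 6 of the 7 were below 0. With library 80 left out and the same covariate, G6pdx was at -0.13 and Pgd at -0.20. Of 21 NRF2 targets, 1 was higher (Nqo1) and 1 lower (Abcc4, a transporter, at 167 CPM in library 80, -2.09 ± 0.98 with it and -0.33 ± 0.29 without it). These numbers lie near the share over all genes. Hmgcs1, of sterol synthesis, differed by 0.81 ± 0.33, Ier3 by 0.67 ± 0.29 and Ier5, likewise an immediate early gene, by -0.68 ± 0.26, or -0.45 without library 80 and -0.20 with the covariate as well. Nfkb2, an NF-kB subunit, differed by -0.29 ± 0.12 and Foxa2, a liver transcription factor, by -0.53 ± 0.23, or -0.37 without library 80 (unadjusted p = 0.0758). The unfolded protein, circadian, gluconeogenesis, fatty acid oxidation, drug transport, tricarboxylic acid (TCA) cycle and cell cycle lists had no member at an unadjusted p below 0.05 in the 16 libraries, and no gene of any of these lists passed after adjustment by edgeR.

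**Figure D4:**
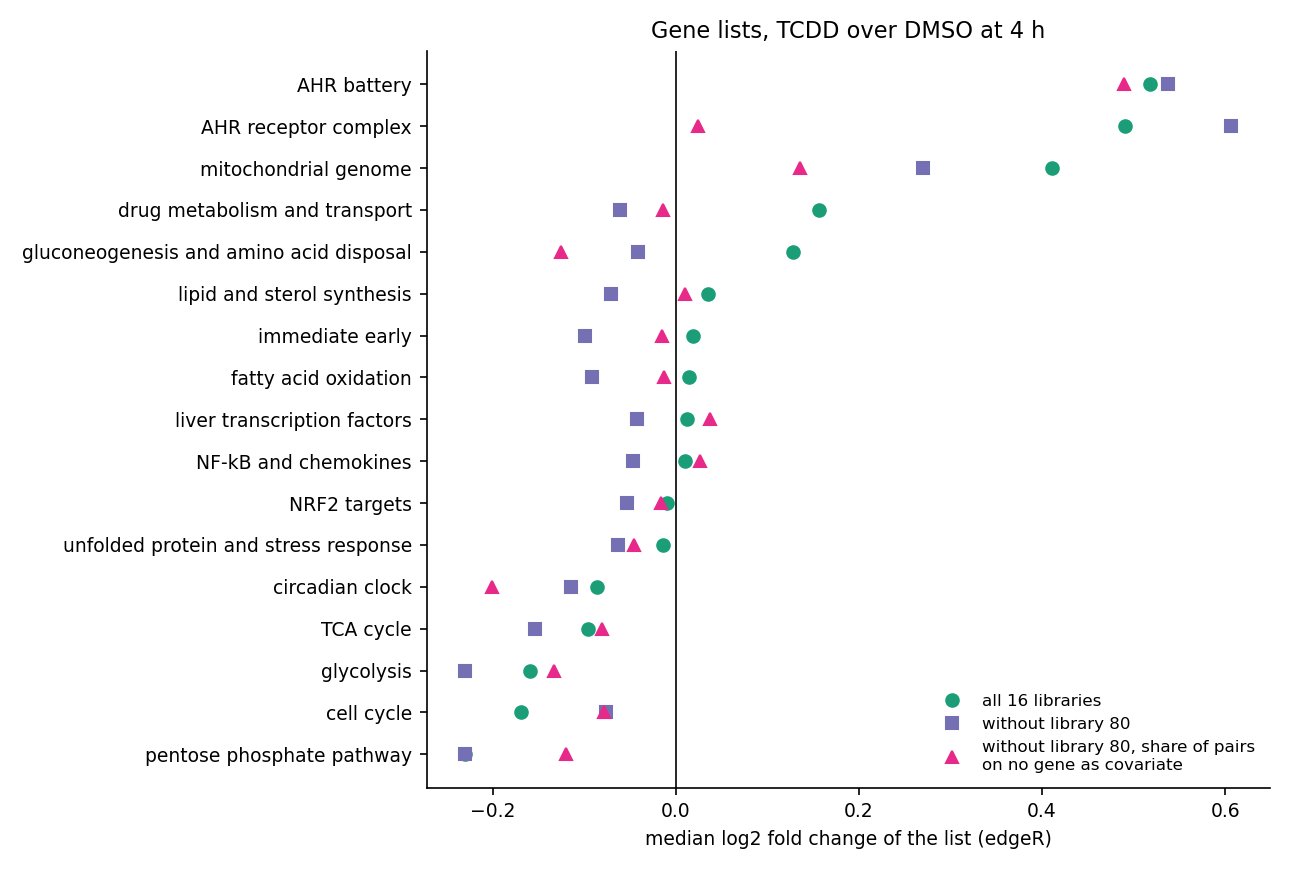
Median log2 fold change of each gene list, TCDD over DMSO at 4 h. Circles are all 16 libraries and squares leave out library 80. Triangles leave out library 80 and take the share of uniquely mapped pairs outside genes as a covariate. The AHR battery lies at 0.52, 0.54 and 0.49, while the AHR receptor complex lies at 0.49, 0.61 and 0.02.

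Glycolysis, the pathway of pyruvate kinase, was compared within each genotype label. Pkm itself measured 69.3, 63.96, 60.8 and 110.4 CPM in controls labelled WT and 49.3, 52.1, 49.01 and 46.3 CPM in WT with TCDD, so that all 4 TCDD libraries were below all 4 controls. Under this label 500 of 12434 genes lay below their controls in this way. With the label PkmΔDRE it measured 167, 88.8, 42.1 and 355 CPM with DMSO and 233, 115.4, 69.4 and 101.8 CPM with TCDD, which overlapped, and the highest was control library 80. Pooled, its exact two-sided permutation p was 0.416, with a difference of -0.32, or -0.06 without library 80. Under the label WT, 12 of 19 glycolytic genes had an unadjusted p below 0.05, all lower with TCDD, against 17.1% of all genes in that fit, and the median was -0.48. With the share of uniquely mapped pairs outside genes as a covariate 7 of the 19 were still below 0.05 (4.08% of all genes in that fit). The median was then -0.52. Under the label PkmΔDRE without library 80 none of the 19 was below 0.05 (1.05% of all genes) and the median was 0.06. The difference between genotypes was tested gene by gene, and no glycolytic gene passed.

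Within single genotype labels and between them, edgeR called 0 or 1 gene. Under the label WT, edgeR called 0 of 12434 genes (0%), with 2126 at an unadjusted p below 0.05 and 38 called by DESeq2. Cyp1a1 was higher by 5.78 ± 0.96 under that label (adjusted p = 0.286), and was called when library 44 was left out. Under the label PkmΔDRE, edgeR called 0 of 12062 (0%), with 289 at an unadjusted p below 0.05 and 2 called by DESeq2, and without library 80 it called 1 of 12247 (0.00817%), Cyp1a1, at 7.76 ± 0.66 (adjusted p = 0.00596). The difference in the response of Cyp1a1 between the labels, PkmΔDRE minus WT, did not pass the test: it was -0.79 ± 1.46 (adjusted p = 0.816, edgeR) with library 80 and 2.00 ± 1.17 (unadjusted p = 0.109, adjusted p = 0.722) without it. Over all genes, the difference between genotypes called 0 of 13214 (0%), with 1186 at an unadjusted p below 0.05 and 1 called by DESeq2, and 1 of 13529 (0.00739%) without library 80. That gene, ENSMUSG00002075524, has no symbol in the tables used. It measured 138.9 to 233 CPM in WT controls and 41.96 to 74.3 CPM in WT with TCDD, and 96.4 to 109.6 CPM in PkmΔDRE controls other than library 80 (230.3 CPM) and 111.7 to 133.5 CPM in PkmΔDRE with TCDD.

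A gene whose 8 TCDD libraries all lay on one side of the 8 controls was rare. With all 16 libraries 2 of 13214 genes did so (0.0151%), and both are named after their values were seen. Ada, the adenosine deaminase of purine breakdown, lay at 1.26 to 2.31 CPM with TCDD and at 2.46 to 6.04 CPM in the controls, a difference of -0.93 ± 0.24. Dnah1, an axonemal dynein chain, lay at 2.91 to 3.81 CPM with TCDD and at 0.495 to 2.701 CPM in the controls, a difference of 1.19 ± 0.32. Neither passed after adjustment (adjusted p = 0.626 by edgeR for each). Without library 80 there were 6 of 13529 (0.0443%): Cyp1a1, Dnah1 and Mypopos above the controls, and Ada, Stard5 and Dazap1 below.

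Cyp1a1 at 4 h lay between its levels at 2 h and 8 h. At 2 h it measured 16.1, 21.9, 4.398 and 0.996 CPM in WT with TCDD and 15.8, 17.1, 12.7 and 7.55 CPM in PkmΔDRE with TCDD, against 0.612 to 4.21 CPM in the controls. At 8 h it measured 1336, 1476, 1397 and 3313 CPM in WT and 3064, 2687, 3100.0 and 2780.0 CPM in PkmΔDRE, against 0.766 to 3.20 CPM. Library 44 (8.24 CPM) was the one treated library of 4 h within the range of treated libraries at 2 h, and every treated library of 8 h was above every one of 4 h. In a fit of the 48 libraries of these hours the differences of Cyp1a1 from DMSO were 2.88, 5.39 and 10.03 at 2, 4 and 8 h. The share of pairs outside genes, higher with TCDD in WT at 8 h, was no covariate in this fit, and its part was not tested. The response at 8 h minus that at 4 h called 1 of 15083 genes (0.00663%), which was Cyp1a1 at 4.64 ± 0.83 (adjusted p = 0.0203 by edgeR). Without library 80 the difference was 3.36 ± 0.72 (adjusted p = 0.246), and no gene was called. The response at 4 h minus that at 2 h called 0 of 15083 (0%), with 315 at an unadjusted p below 0.05, and Cyp1a1 was at 2.51 ± 0.84 (adjusted p = 0.999). Without library 80 it again called 0 of 15519 (0%), with 204 below 0.05, and Cyp1a1 was at 3.79 ± 0.76 (adjusted p = 0.143), since its difference at 4 h was then 6.61.

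The other AHR genes were read in the same fit, in which no test compared one gene's time course with another's. Tiparp differed by 1.52, 1.69 and 2.62 at 2, 4 and 8 h, Nqo1 by -0.09, 0.64 and 1.04, Cyp1a2 by -0.22, 0.54 and 1.74, and Ugdh by 0.45, 0.57 and 1.09. Without library 80 the difference of Cyp1a2 at 4 h was 0.28 in place of 0.54. The treated and control libraries of Nqo1 overlapped under both labels at 2 h and 4 h. At 8 h they did not overlap within a label, at 28.5 to 41.7 CPM with TCDD and 19.7 to 23.95 CPM with DMSO under WT, and 52.1 to 76.9 CPM and 24.25 to 30.6 CPM under PkmΔDRE. The number of all genes without overlap at 8 h was not counted, which also holds for Pkm above. Of the 19 battery genes tested in that fit, 16 had a larger difference at 4 h than at 2 h (median 0.38), with 4 at an unadjusted p below 0.05 (2.09% of all genes). A larger difference at 8 h than at 4 h was seen for 18 (median 0.76), with 7 below 0.05 (3.14% of all genes, 474 in number). Without library 80 the numbers were 17 (median 0.38), with 3 below 0.05 (1.31% of all genes), and 18 (median 0.56), with 7 (2.46%). These 2 comparisons share the libraries of 4 h, and the list was chosen with earlier results of these data known.

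**Figure D5:**
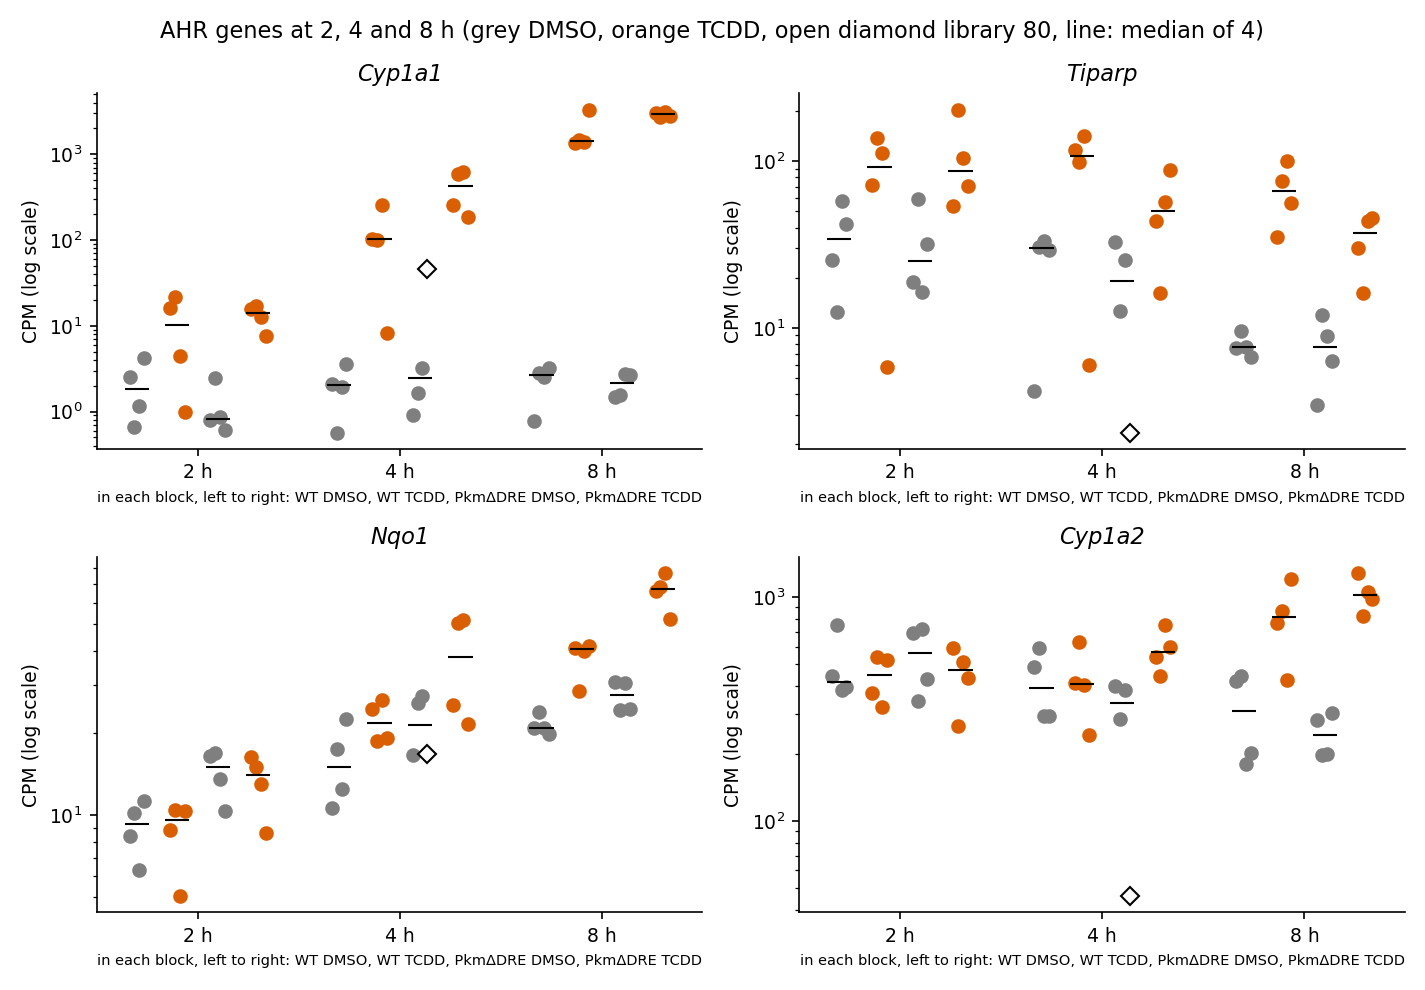
CPM of Cyp1a1, Tiparp, Nqo1 and Cyp1a2 at 2, 4 and 8 h on log scales, 1 point per library, grey for DMSO, orange for TCDD, with a line at the median of each group of 4 and library 80 as an open diamond. Cyp1a1 with TCDD lies at 0.996 to 21.9 CPM at 2 h, 8.24 to 629 CPM at 4 h and 1336 to 3313 CPM at 8 h.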

How the data were processed

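RNA from hepatocytes was sequenced as paired reads. Per the submitters' processing notes the authors used FastQC 0.11.3, Trimmomatic 0.39, STAR 2.7 and GRCm39, and they deposited raw counts of read pairs per gene, 1 file per library, with an unstranded column and 2 stranded columns. The unstranded counts were used here as deposited, for 48 of the 144 libraries; the other 96 files and the stranded columns were not used. Without strand, a gene and an antisense gene that overlaps it cannot be told apart. The 4 summary lines of each file (unmapped, multimapped, no gene, ambiguous) stayed out of library sizes. They took 24.9% to 32.6% of pairs in the 16 libraries of 4 h, and 23.9% to 48.0% over the 48 used. As a covariate, the share of pairs outside genes was taken of uniquely mapped pairs, with multimapped pairs left out. The percentages of pairs outside genes printed for single libraries are of all pairs.

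Genes were kept with filterByExpr (minimum count 10, minimum total 15), scaled by TMM and tested with the robust quasi-likelihood test of edgeR 4.0.16 in R 4.3.3, with Benjamini-Hochberg adjustment over all genes tested. DESeq2 1.42.0 and sva 3.50.0 were alternatives. CPM are counts scaled to a common total of counts on genes. Of 55359 gene IDs, 52083 had a symbol. The study's own empirical Bayes program was not at hand, so the count test took its place. The exact permutation tests exchanged TCDD and DMSO within each genotype label. The standard errors come from the quasi-likelihood test and include the spread between libraries. Floors cover counting error only, and a fold change against a floor takes the TCDD count as exact. No pair of libraries agreed within sampling noise.

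Named genes were Pkm, the study's 6 AHR genes, called genes and the up to 4 members of each list with the smallest p; others are named as members of the 2 AHR lists or as chosen after their values were seen. The members and lists were chosen with earlier results of these data known. Single values of some list members are not reported here; the lists' counts, medians and sums include them.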

Additional observations from a re-analysis of the deposited data

Results flagged for a closer look

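Within each group of 4 libraries, a library was singled out when its gap to the nearest other, as a share of the group's range, was above Dixon's critical value for 4 samples. This happened for 22 of 223 values examined, and 10 of the 22 were library 80. The nominal rate of 5% is no measure of chance here, since some of the genes were named for their values in these same libraries. Among the PkmΔDRE controls, library 80 was highest for Cyp1a1 (45.6 CPM, others 0.918 to 3.23), Nfe2l2 (211 CPM, others 50.7 to 77.02), Fmo2 (3.08 CPM), Arnt2 (12.3 CPM), Abcc4 (167 CPM), Ldhb (6.92 CPM) and Pgd (628 CPM, others 440.0 to 469). It also had the largest share of pairs outside genes (9.16%), the lowest summed hepatocyte markers (9105 CPM) and the highest summed cholangiocyte markers (662.5 CPM).

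Among the PkmΔDRE TCDD libraries, replicate 2 was highest for Cyp1b1 (0.453 CPM) and Arnt (34.8 CPM), replicate 3 was highest for Arnt2 (0.421 CPM) and mt-Nd4l (1.20 CPM) and lowest for the mitochondrial share (3.04%), and replicate 1 was lowest for Htatip2 (71.2 CPM). Among the WT controls, library 5 was lowest for Tiparp (4.15 CPM, others 29.4 to 33.4) and highest for Ada (6.04 CPM), library 7 was highest for Ncoa3 (50.1 CPM) and library 8 lowest for the summed hepatocyte markers (105000 CPM). Among the WT TCDD libraries, library 42 was highest for Ier3 (14.8 CPM) and library 41 lowest for Ada (1.26 CPM).

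One response differed between genotypes by a test of the difference itself. ENSMUSG00002075524 differed by 2.07 on the log2 scale (PkmΔDRE minus WT, adjusted p = 0.0179 by edgeR without library 80), and by 1.64 (adjusted p = 0.526) with it.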

How the results depend on the processing

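No paired analysis was possible because the labels number no replicates and name no animal, litter or day that libraries share. The order of library numbers is no such label and was not used as a block, though in that order the unmapped share of pairs ran alike: 14.2%, 14.5%, 8.07% and 9.62% in WT with DMSO and 12.7%, 13.8%, 7.14% and 9.13% with TCDD. Whether libraries of different groups share a source was not tested, and the p-values treat them as unpaired. The count of genes called over both genotypes, 0, became 1 (Cyp1a1) with DESeq2, with 1 surrogate variable and with the share of pairs outside genes as a covariate. The surrogate variable was 0.953 in library 80 and -0.152 to 0.019 in the others, so this setting lies close to leaving library 80 out. In alternatives chosen after seeing the data the count was 1 without library 80 plus the share outside genes, 1 without libraries 80 and 44, 1 with DESeq2 without library 80, 2 in the fit of 48 libraries (Cyp1a1 and 4931440P22Rik) and 1 in the fit of 47. Leaving out each library gave 0 to 1, and it was 1 without library 80 or library 44. Within WT the count of 0 became 38 with DESeq2 and 4 with no filter on low counts, and was 0 to 1 when a library was left out (1 without library 44). Within PkmΔDRE it became 2 with DESeq2 (Cyp1a1 and Edc3) and 0 to 1 when a library was left out (1 without library 80). The difference between genotypes, 0, became 1 with DESeq2 (Dgcr6) and 0 to 1 when a library was left out (1 without library 80). The 8 h minus 4 h count of 1 became 0 without library 80 and 0 with hours 4 and 8 alone. Another scaling (RLE), no fold threshold, no genotype covariate and the unmapped share left the count over both genotypes at 0.

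Cyp1a1 stayed above 0 in every setting run, from 4.402 (adjusted p = 1, without libraries 41, 42 and 43) to 6.92, and passed in 10 of its settings by edgeR or DESeq2; without library 80 plus 1 surrogate variable it did not (6.66, adjusted p = 0.0947). Of 1426 values of 46 named genes, 1389 kept direction and side of the threshold, 10 newly passed and 27 changed sign, in 11 genes, none of which passed the test. With the share of pairs outside genes as a covariate Ahr became -0.092 and Stard5 0.046, and with the unmapped share Ncoa3 became -0.0045. Without library 80 plus the share outside genes, Pkm became 0.080, Ahr -0.12, Hsp90aa1 -0.62, Ep300 -0.061 and Nrip1 -0.34. Without library 80 plus 1 surrogate variable, Ahr became -0.15, Hsp90aa1 -0.55, Hsp90ab1 0.030, Ep300 -0.00526 and Nrip1 -0.20. In the fit without libraries 41, 42 and 43, which kept library 80, Nfe2l2 became -0.033, Ahr -0.46, Hsp90aa1 -0.23, Ncoa3 -0.064 and Ep300 -0.066. When 1 library was left out, Ahr ran from -0.12 to 0.25, with -0.095, -0.019, -0.013 and -0.011 among the values below 0, Exoc3 from -0.041 to 0.12, with -0.0021 also below 0, Ncoa3 from -0.054 to 0.17 and Ptges3 from -0.0046 to 0.37. The cause of these changes was not tested. Counts of 0 to 11 limit Ahrr and Cyp1b1.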
